A study of Rattus norvegicus with 48 samples.

Results

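A total of 268 genes had their highest or lowest mean at day 2 of fasting in cerebral endothelial cells (CECs) of the rat cortex, 120 with a peak and 148 with a trough, which is 2.83% of the 9461 genes with a mean of at least 100 reads. Reads were turned into CPM, counts scaled to a total of 1000000 reads assigned to genes. A peak gene had a day-2 mean of log2(CPM + 0.1) at least 0.3 (a 1.23-fold difference) above the means of each other group, and a trough gene had one at least 0.3 below each. The distance to the nearest of the other group means is called the margin here. The genes were thus chosen by their measured levels at day 2 against each other group, so their differences from day 2 are given as a description, without a test.

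The study sorted CECs from male Wistar-Han rats with free access to food (AL, ad libitum) and from rats deprived of it for 1 day (F1), 2 days (F2) or 3 days (F3), with no other treatment named in the labels, and each group has 3 samples named i, j and k. Tissue from a pair of cortices was pooled before digestion, microglia were depleted through CD11b and endothelial cells were taken through CD31, so that a sample stands for pooled animals. Summing the 4 technical replicates gave per sample 20718644 (AL sample k) to 25960874 (F3 sample i) reads assigned to genes. Pecam1, which encodes CD31, lay between 1310 and 1589 CPM in the 12 samples. Technical replicates of a sample differed by about the sampling noise (chi-square per degree of freedom 1.00 to 1.02), against 9.75 to 51.5 between samples of a group. F2 sample j stood apart. It was lower than all other samples by at least 0.5 on the log2 scale for 278 of the 9461 genes. The next sample, AL sample k, was so for 34. Higher than all other samples by as much were F2 sample j for 9 genes and AL sample k for 18.

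Brain endothelial cells form the blood-brain barrier and feed the brain through carriers in their membranes. In fasting the liver makes ketone bodies, which cross the barrier through the monocarboxylate transporter MCT1, the product of Slc16a1, as lactate does. Endothelial cells of capillaries share a basement membrane with pericytes, contractile mural cells that wrap the vessel and carry their own set of ion channels, peptidases and receptors. In bulk samples such as these, fewer cells of a type and less RNA per cell cannot be told apart.

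Of the 268 genes, 46 (17.2%) could be given a gene symbol, 26 peak and 20 trough genes, mostly those early in the alphabet, because identifiers are paired with symbols here for 2043 features. The other 222 genes were counted without a name. Promoters are shown for 4 named genes that had a promoter sequence here and 3 F2 samples apart from the other 9 samples. The F2 samples of Slc16a1 and Acot2 lay above the others. Those of Bdkrb2 and Adcy3 did so too, but no promoter was found for these genes. The F2 samples of Slc25a24 and Slc36a1 lay below the others, and these genes had the widest margins of such trough genes. The windows are RefSeq sequences of 300 bases around a transcript start on assembly GRCr8, all on the plus strand, at chr2:194812410-194812709 (Slc16a1), chr6:109342590-109342889 (Acot2), chr2:199449175-199449474 (Slc25a24) and chr10:39824785-39825084 (Slc36a1). Capitals mark GC boxes (the letters GGGCGG), boxes with the letters CCAAT, short cAMP-response sites (TGACG) and E-boxes of clock and Myc factors (CACGTG), searched on both strands.
Slc16a1: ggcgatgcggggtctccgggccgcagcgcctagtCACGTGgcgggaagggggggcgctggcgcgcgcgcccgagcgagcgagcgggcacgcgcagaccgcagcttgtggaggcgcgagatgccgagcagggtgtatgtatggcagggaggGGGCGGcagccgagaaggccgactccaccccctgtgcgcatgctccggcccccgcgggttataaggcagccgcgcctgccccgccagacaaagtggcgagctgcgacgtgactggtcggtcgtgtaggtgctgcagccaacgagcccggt
Acot2: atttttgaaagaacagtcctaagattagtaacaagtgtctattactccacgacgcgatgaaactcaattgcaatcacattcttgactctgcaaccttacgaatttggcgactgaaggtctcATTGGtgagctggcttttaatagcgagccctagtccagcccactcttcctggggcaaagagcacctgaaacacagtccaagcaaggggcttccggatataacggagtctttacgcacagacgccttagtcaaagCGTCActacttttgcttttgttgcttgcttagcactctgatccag
Slc25a24: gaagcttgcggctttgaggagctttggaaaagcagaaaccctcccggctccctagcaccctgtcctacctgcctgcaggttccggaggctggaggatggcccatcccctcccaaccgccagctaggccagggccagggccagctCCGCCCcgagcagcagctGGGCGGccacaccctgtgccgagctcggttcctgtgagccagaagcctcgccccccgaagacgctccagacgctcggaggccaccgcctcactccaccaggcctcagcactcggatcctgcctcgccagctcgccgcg
Slc36a1: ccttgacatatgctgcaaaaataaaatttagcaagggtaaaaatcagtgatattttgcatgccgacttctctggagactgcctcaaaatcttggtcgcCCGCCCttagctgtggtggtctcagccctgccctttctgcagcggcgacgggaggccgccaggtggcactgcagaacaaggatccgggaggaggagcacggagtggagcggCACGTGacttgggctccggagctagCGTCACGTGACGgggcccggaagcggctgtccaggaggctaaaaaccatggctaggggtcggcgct
The Slc16a1 window is rich in G and C (72.7%) and holds a GC box and an E-box, whereas that of Acot2 holds 46.0% G and C, a CCAAT box and a short cAMP-response site. The Slc36a1 window holds 2 E-boxes, one of which overlaps both of its short cAMP-response sites. Promoters were found for 15 of the 26 peak and 18 of the 20 trough genes with a symbol. A GC box stood in 8 of the 15 and in 11 of the 18, against 34.9% of all 27457 promoters. The median content of G and C was 60.3% and 58.2% in these peak and trough promoters and 52.3% in all, and its part in the counts of GC boxes was not tested. The E-box stood in 2 peak promoters (Slc16a1 and Arl5b) and 1 trough promoter (Slc36a1), against 6.65% of all. The letters TGACG were in 4 of 15 and 4 of 18, against 22.0%, and the letters TGGGAA of the RBP-J site were in 7 of 15 and 1 of 18, against 25.1%. The letters ACGTG of the hypoxia response core were in 7 of 15 and 4 of 18, against 19.7%. The direct repeat of PPAR factors was in none of these 33 promoters and in 0.0583% of all. A match or its lack is a description of these letters in these windows. The set of all promoters was not limited to genes with reads in these samples, and the sites named are a choice from a longer list.

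The peak genes did not form 1 pattern across the samples. All 3 F2 samples lay above the other 9 for 29 of the 120 peak genes (24.2%), against 67 of the 9461 genes (0.708%). For another 51 (42.5%, against 0.909% of the 9461), the 4 highest samples were AL sample i, F2 samples i and k and F3 sample i, so that 1 fed and 1 day-3 sample shared the high level. The remaining 40 followed neither. In 6 of them (5% of the 120), F2 sample j lay above the other 9 while F2 samples i and k did not. That pattern held for 23% of the 9461 genes. These patterns were noticed in the data and follow in part from the rule, so they carry no test. The sample with the highest level was AL sample i for 39 peak genes, F2 sample j for 33, F2 sample i for 28 and F2 sample k for 15.

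**Figure D1:**
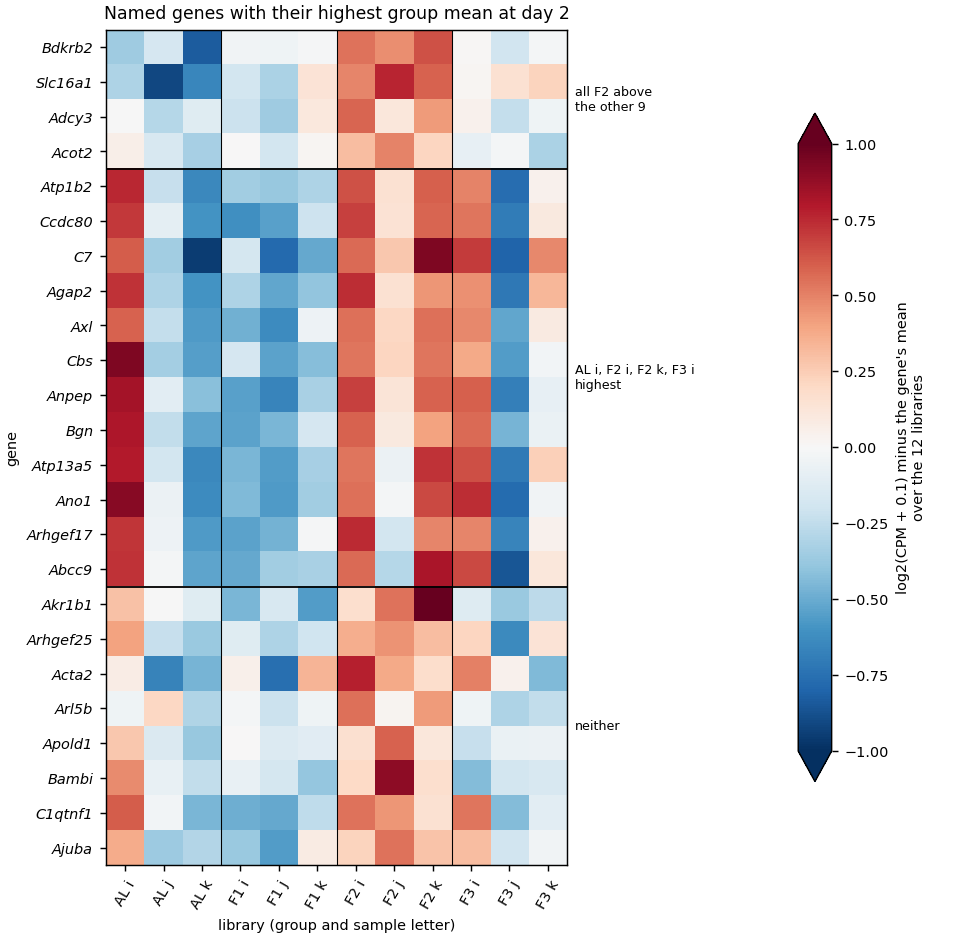
Heat map of 24 of the 26 peak genes with a symbol (rows) in the 12 samples (columns), coloured by log2(CPM + 0.1) minus the gene's mean over the 12 samples, with colours ending at -1 and 1. Slc16a1, Bdkrb2 and Acot2 are highest in the 3 F2 samples, Adcy3 is at nearly the same level in F2 sample j (5.57 CPM) and F1 sample k (5.56 CPM), and the 12 genes of the middle block are also high in AL sample i and F3 sample i.

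Slc16a1, Bdkrb2, Acot2 and Adcy3 were the named genes with all F2 samples above the other 9. Slc16a1 had 742, 486 and 582 CPM in AL samples i, j and k, 806, 736 and 1006 in F1, 1284, 1558 and 1378 in F2 and 931, 1021 and 1071 in F3 samples. Its F2 samples did not overlap with any other group, and its margin of 0.48 was set by F3 rats. The 4 technical replicates of F2 sample j ranged from 1539 to 1575 CPM, and those of F2 sample i from 1263 to 1297. Bdkrb2, the bradykinin B2 receptor, had 38.9, 44.4 and 27.8 CPM in AL, 48.6, 48.4 and 49.4 in F1, 72.4, 68.8 and 77.4 in F2 and 50.2, 43.6 and 49.03 in F3 samples. The margin of Bdkrb2 was 0.58, above those of the other 25 peak genes with a symbol, and its F1 and F3 samples lay side by side between 43.6 and 50.2 CPM. Acot2, a mitochondrial acyl-CoA thioesterase, had 16.1, 13.9 and 12.3 CPM in AL, 15.5, 13.6 and 15.7 in F1, 19.2, 21.9 and 18 in F2 and 14.6, 15.3 and 12.4 in F3 samples, so that AL, F1 and F3 samples overlapped and F2 samples stood above. Adcy3, an adenylate cyclase that makes cyclic AMP, had 5.13, 4.2 and 4.73 CPM in AL, 4.41, 4.002 and 5.56 in F1, 7.74, 5.57 and 6.94 in F2 and 5.32, 4.35 and 4.99 in F3 samples, and its lowest F2 sample barely exceeded its highest F1 sample. These 4 kept a margin of at least 0.3 without any 1 of the 12 samples, as did 18 of the 120 peak genes in all.

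Slc16a1 also differed from AL rats at days 1 and 3. Its LFC (log2 fold change) was 0.56 in F1 against AL rats (standard error 0.14, adjusted p = 0.0276) and 0.79 in F3 against AL rats (0.14, 0.00220), both by the quasi-likelihood test of edgeR, with Benjamini-Hochberg adjustment over 13050 genes. In F3 against F1 rats its LFC of 0.23 (0.14, 0.996) did not pass the threshold. All 3 F1 and all 3 F3 samples lay above the AL samples except that F1 sample j (736 CPM) lay under AL sample i (742 CPM). The call at day 3 held in 20 of 20 alternatives (adjusted p from 1.04e-06 to 0.0136). The call at day 1 was lost in 6 of 20, without AL sample j or k, without F1 sample i or k, with total reads as the scale and with the 6 samples compared (adjusted p from 0.0580 to 0.108). Of the list of genes for monocarboxylate and ketone use, 4 of 10 had a symbol, and Slc16a1 was called while Acat1, Bdh1 and Bsg were not, at day 1 or day 3. Bdkrb2 had an LFC of 0.45 at day 1 (0.14, 0.0659) and 0.40 at day 3 (0.14, 0.0722), which did not pass the threshold. It passed at both days without AL sample j (adjusted p = 0.0114 and 0.0109) and with DESeq2's Wald test (0.0257 and 0.0390). Acot2 had an LFC of 0.14 at day 1 (0.12, 0.554) and 0.05 at day 3 (0.12, 0.857). Among the 8 genes with a symbol on a list of 27 targets of PPAR factors, which sense fatty acids, Acot2 was the 1 peak gene, while Angptl4 and Acadm rose at day 1 and these with Acadl at day 3.

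**Figure D2:**
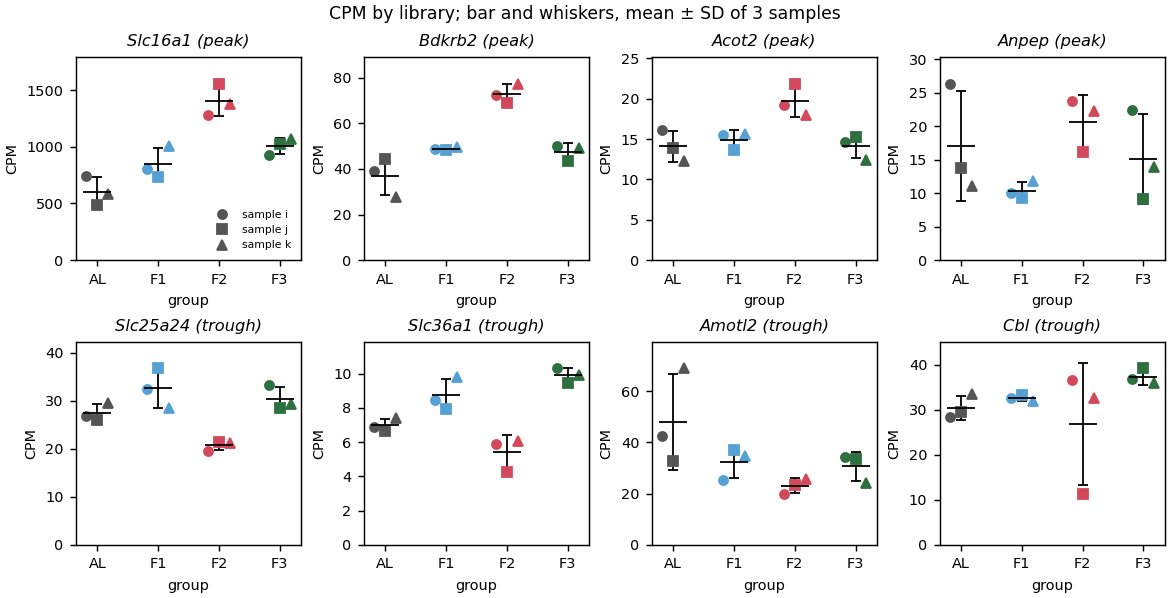
CPM of 8 genes in each of the 12 samples, by group (x axis), with the sample letter as the marker shape and the mean ± SD of 3 samples as a bar with whiskers. Slc16a1, Bdkrb2 and Acot2 lie above all other groups at day 2 and Slc25a24 and Slc36a1 below them, whereas Anpep overlaps with AL and F3 rats and Cbl is low in F2 sample j (11.3 CPM) but not in F2 samples i and k.

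Markers of pericytes were peak genes of the other pattern. All 3 genes of the 12-gene pericyte list that had a symbol, Abcc9 (a subunit of ATP-sensitive potassium channels), Anpep (aminopeptidase N) and Atp13a5 (a P-type ATPase), were among the 51 genes with AL sample i, F2 samples i and k and F3 sample i highest. Anpep had 26.4, 13.7 and 11 CPM in AL, 10.1, 9.295 and 11.8 in F1, 23.7, 16.1 and 22.2 in F2 and 22.3, 9.12 and 13.9 in F3 samples. All F2 samples of Anpep lay within the range of the AL samples and above the 3 F1 samples. Atp13a5 had 93.9, 47.6 and 34.5 CPM in AL, 39.4, 36.6 and 43.01 in F1, 78.6, 51.9 and 89.2 in F2 and 84.7, 33.1 and 63.7 in F3 samples. The summed level of the 3 markers ranged from 111 to 276 CPM in AL, from 116 to 130 in F1, from 146 to 278 in F2 and from 94.6 to 257 in F3 samples. Within AL rats it was 276, 154 and 111 CPM in samples i, j and k, so the spread inside that group was as wide as the spread between groups. Other defining markers of pericytes, such as Pdgfrb and Rgs5, were not analysed here. The part of pericyte RNA in the peak genes was not tested.

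Other genes of the same 51 with a symbol encode membrane pumps and channels, matrix and signalling proteins. Atp1b2, a subunit of the sodium pump, had 66.1, 47.2 and 64.2 CPM in F2 samples i, j and k, against 71.8 CPM in AL sample i and 25.0 CPM in F3 sample j. Ano1, a calcium-activated chloride channel, had 20.7, 10.6 and 7.095 CPM in AL, 8.11, 7.402 and 8.64 in F1, 16.2, 10.9 and 17.5 in F2 and 18.5, 6.43 and 10.7 in F3 samples, so that AL sample i was its highest and F3 sample j its lowest. Bgn (biglycan) and Ccdc80 (a matrix protein) ranged in F2 samples from 23.0 to 32.4 and from 17.2 to 25.0 CPM. In AL samples the same genes spanned 14.9 to 37.7 and 10.2 to 25.4 CPM, a range that held all F2 samples. Axl (a receptor tyrosine kinase), Cbs (cystathionine beta-synthase), C7 (a complement component), Agap2 (a GTPase-activating protein for Arf) and Arhgef17 (a guanine nucleotide exchange factor) had margins of 0.46 or less. For the 14 genes with a symbol of this pattern the F1 samples were low as a group, and the median of all 51 lay 0.22 to 0.47 below each gene's own mean in the 3 F1 samples.

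Membership among the peak genes rested on few samples. The counts that follow are of all peak genes, and how many of the 51 were lost is not given here. Without F3 sample j, in which the 51 genes had a median of 0.71 below their means, 64 peak genes were found, of which 59 were among the 120. Without AL sample k (0.57 below) the number was 47, of which 46 were among the 120. The 74 genes lost without AL sample k included 18 of the 26 named ones. Abcc9, Anpep and Atp13a5 were among these, as were genes outside the 51, such as Apold1 and Bambi. The margins of Abcc9 (-0.022), Atp13a5 (-0.041) and C7 (-0.0020) turned negative without F3 sample j, as did that of Ano1 (-0.026) without AL sample k. The spread inside groups showed the same: the median SD of the 120 peak genes on the log2 scale was 0.49 in AL and 0.45 in F3 rats but 0.17 in F1 and 0.21 in F2 rats, while over the 9461 genes it was 0.10, 0.08, 0.09 and 0.16.

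**Figure D3:**
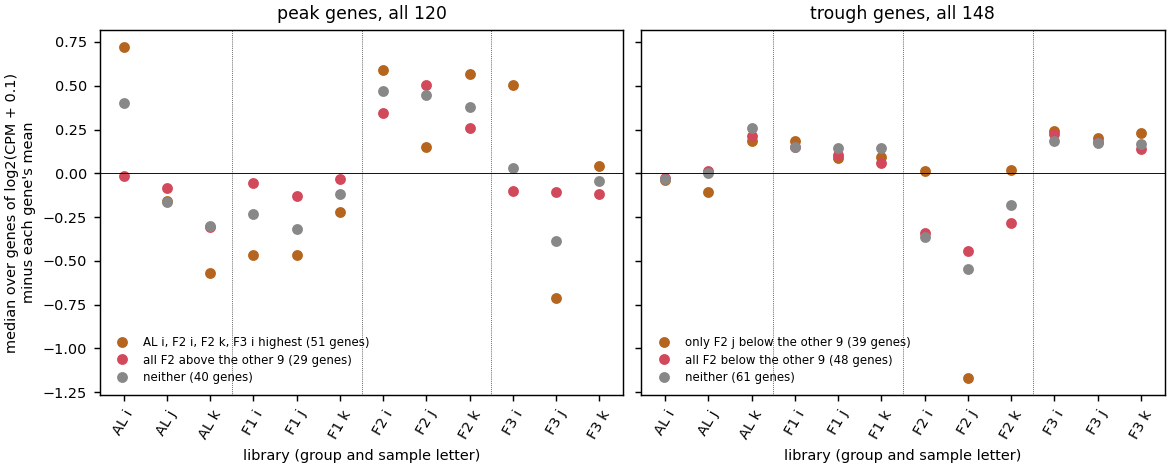
Median over genes of log2(CPM + 0.1) minus each gene's mean, by sample, for the 120 peak genes (left) and the 148 trough genes (right), split by pattern. The 51 genes shared by AL sample i, F2 samples i and k and F3 sample i swing from 0.72 in AL sample i to -0.71 in F3 sample j, whereas the 29 genes with all F2 samples highest lie between -0.31 and -0.02 in AL samples and at 0.26 to 0.51 in F2 samples.

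The other 8 named peak genes followed neither pattern. Acta2, the smooth muscle actin, had 9.24, 5.46 and 6.32 CPM in AL, 9.07, 5.16 and 11.1 in F1, 15.03, 11.4 and 9.88 in F2 and 12.4, 9.0 and 6.41 in F3 samples, so that F2 samples lay above AL samples but overlapped with F1 and F3 samples. It was the 1 gene of 9 on the smooth muscle list with a symbol here. Apold1, a lipid-binding-like protein of endothelial cells, had 5333, 4014 and 3409 CPM in AL, 4456, 4026 and 4090.0 in F1, 4945, 6679 and 4796 in F2 and 3775, 4237 and 4265 in F3 samples. AL sample i of Apold1 lay between F2 samples, and the gene was no longer a peak gene without F2 sample j. Bambi, a decoy receptor of the TGF-beta family, had 24.8, 16.9 and 15.01 CPM in AL, 16.9, 15.7 and 13.6 in F1, 20.5, 33.1 and 19.97 in F2 and 13.2, 15.6 and 15.9 in F3 samples, with F2 sample j above the rest. Akr1b1 (aldose reductase) was highest in F2 sample k (21.6 CPM), but F2 sample i (11.5 CPM) lay below AL sample i (12.6 CPM). Arl5b, a small GTPase, had 133, 92.5 and 122 CPM in F2 samples against 73.2 to 105 in the other 9. Ajuba (a LIM protein), Arhgef25 (a guanine nucleotide exchange factor) and C1qtnf1 (a secreted protein with a C1q domain) had margins of 0.32, 0.44 and 0.34.

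Among genes without a symbol, ENSRNOG00000005286 had the widest margin of the 120, 1.11, and its F2 samples (13.9, 7.56 and 8.28 CPM) overlapped with F1 sample k (11.3 CPM). ENSRNOG00000026051, named after its values were seen, fell into separate sets of samples within groups. It lay between 0.578 and 1.05 CPM in 6 samples and between 9.16 and 51.1 CPM in the other 6, with samples of each group in both sets, and its margin of 0.86 came from F2 samples i and k (12.4 and 36.6 CPM).

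The trough genes also held more than 1 pattern. All 3 F2 samples lay below the other 9 for 48 of the 148 (32.4%), against 190 of the 9461 genes (2.01%). For 39 (26.4%), F2 sample j alone lay below the other 9, while F2 samples i and k were within the range of the 9 or above it. The latter pattern was common, and held for 17.4% of the 9461 genes. The remaining 61 followed neither. As for the peak genes, these patterns follow in part from the rule and carry no test. F2 sample j was the lowest sample for 98 of the 148 trough genes, F2 sample i for 36 and F2 sample k for 13.

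**Figure D4:**
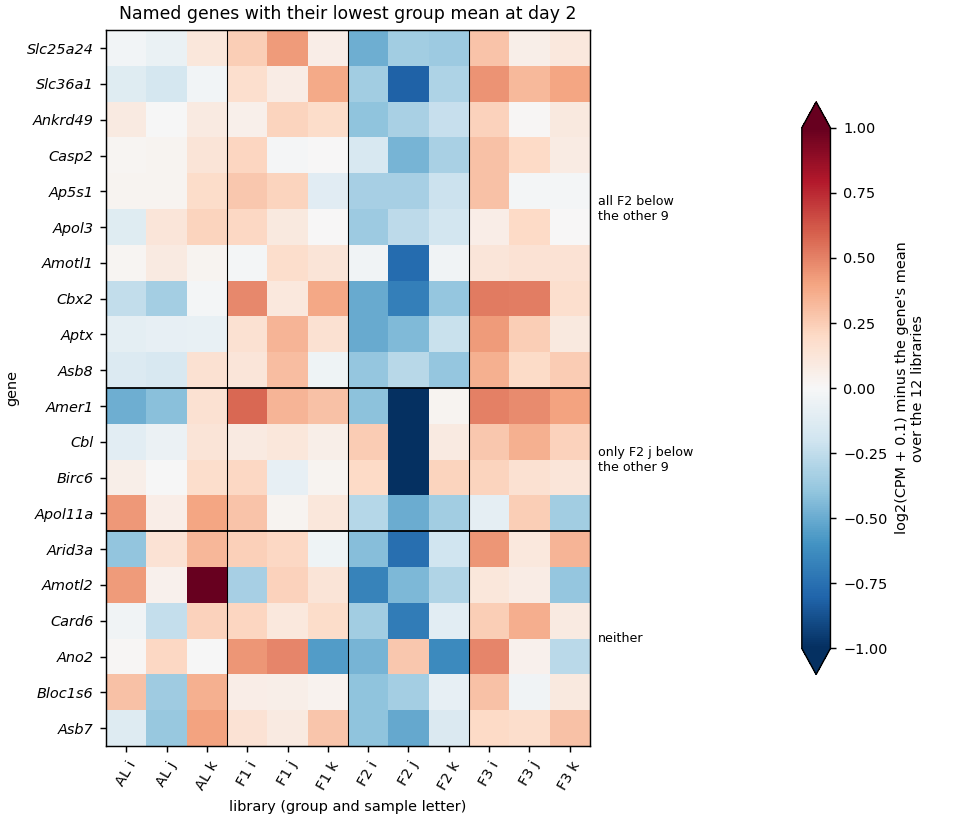
Heat map of the 20 trough genes with a symbol (rows) in the 12 samples (columns), coloured by log2(CPM + 0.1) minus the gene's mean over the 12 samples, with colours ending at -1 and 1. The upper 10 genes are lowest in the 3 F2 samples, although F2 samples i and k of Amotl1 (76.8 and 76.9 CPM) are close to F1 sample i (78.0 CPM), and Amer1, Cbl and Birc6 are low by more than 1 in F2 sample j.

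Slc25a24, a mitochondrial carrier of ATP-magnesium and phosphate, had 26.8, 26.04 and 29.5 CPM in AL samples i, j and k, 32.4, 36.8 and 28.6 in F1, 19.5, 21.4 and 21.2 in F2 and 33.2, 28.4 and 29.4 in F3 samples. The F2 samples stood below all others, and AL, F1 and F3 samples overlapped. Ankrd49, an ankyrin repeat protein, had 9.85, 9.24 and 9.85 CPM in AL, 9.58, 10.8 and 10.5 in F1, 7.002, 7.39 and 7.86 in F2 and 10.9, 9.33 and 9.91 in F3 samples, with the same separation. Casp2, a caspase, had 36.9, 37.1 and 39.8 CPM in AL, 42.3, 36.1 and 36.7 in F1, 32.7, 26.5 and 29.1 in F2 and 44.8, 41.8 and 38.6 in F3 samples. Ap5s1, a subunit of the AP-5 adaptor, ranged from 5.18 to 5.63 CPM in F2 samples against 6.02 to 8.05 CPM in the other 9. Apol3, of the apolipoprotein L family, ranged from 106 to 119.8 CPM in F2 samples and from 126 to 159 CPM in the other 9. Apol11a, with 2 genes between it and Apol3 in the RefSeq order, was a trough gene as well, but members of this family resemble each other, and the authors had removed reads that matched several places. Amotl1 belonged to the 48 by a small distance, since F2 samples i and k had 76.8 and 76.9 CPM and F1 sample i had 78.0 CPM, while F2 sample j had 46.2 CPM.

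Among the genes with all F2 samples lowest, Slc36a1, Cbx2 and Asb8 were higher in F1 or F3 rats than in AL rats. Slc36a1, the proton-coupled amino acid transporter PAT1 of lysosomes, had 6.901, 6.64 and 7.38 CPM in AL, 8.48, 7.92 and 9.82 in F1, 5.89, 4.25 and 6.06 in F2 and 10.3, 9.46 and 9.95 in F3 samples. Its F3 samples lay above all AL samples (LFC 0.55, standard error 0.14, adjusted p = 0.0211), and at day 1 its LFC of 0.39 (0.14, 0.134) did not pass the threshold (edgeR with Benjamini-Hochberg adjustment). The call at day 3 was lost without AL sample i or j and without F3 sample i or k (adjusted p from 0.0650 to 0.0857), and at day 1 it was gained without F2 sample j (0.0358). Cbx2, a subunit of Polycomb complexes, had 3.95, 3.696 and 4.63 CPM in AL, 6.59, 5.08 and 6.19 in F1, 3.295, 2.89 and 3.57 in F2 and 6.78, 6.76 and 5.29 in F3 samples. It rose at day 1 (LFC 0.60, standard error 0.16, adjusted p = 0.0418) and at day 3 (0.67, 0.16, 0.0158), and all F1 and F3 samples lay above the AL samples. At day 1 that call was lost in 11 of 20 alternatives, which include leaving out any 1 AL or F1 sample, F2 sample i, or F3 sample i or j, and total reads as the scale (adjusted p over the 11 from 0.0523 to 0.140). At day 3 it was lost without AL sample i or j and without F3 sample i or j (0.0575 to 0.0763). Asb8, a substrate receptor of ubiquitin ligases, rose at day 3 (LFC 0.36, standard error 0.11, adjusted p = 0.0435), with 24.5, 21.9 and 22.8 CPM in F3 against 17.4, 17.1 and 21.3 in AL and 14.6, 15.8 and 14.6 in F2 samples. This call was lost in 11 of 20 alternatives, which include leaving out AL sample i or j, F1 sample i, F2 sample i or k, or any 1 F3 sample, total reads as the scale and leaving out technical replicate d of F1 sample k (over the 11, 0.0513 to 0.166). Aptx, a DNA strand-break repair protein, had 4.24, 4.28 and 4.296 CPM in AL, 5.04, 5.77 and 5.06 in F1, 3.17, 3.31 and 3.87 in F2 and 6.12, 5.39 and 4.87 in F3 samples. Its LFC of 0.37 in F1 (0.14, 0.158) and 0.40 in F3 rats (0.14, 0.0889) did not pass the threshold, although all F1 and F3 samples lay above the AL samples.

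F2 sample j alone set the trough of several genes. Cbl, a ubiquitin ligase of receptor signalling, had 28.4, 29.4 and 33.4 CPM in AL, 32.5, 33.2 and 31.98 in F1, 36.5, 11.3 and 32.6 in F2 and 36.9, 39.2 and 35.9 in F3 samples. The 4 technical replicates of F2 sample j had 10.8 to 11.99 CPM of Cbl, against 32.7 to 38.7 CPM in those of F2 sample i. Birc6, a large ubiquitin-conjugating inhibitor of apoptosis, had 181, 64.2 and 184 CPM in F2 samples i, j and k, against 149 to 185 CPM in the other 9 samples, and 60.7 to 68.7 CPM in the technical replicates of F2 sample j. Amer1, an adaptor of Wnt signalling, had 4.72, 4.96 and 7.43 CPM in AL, 9.996, 8.48 and 8.17 in F1, 4.98, 2.38 and 6.81 in F2 and 9.48, 9.29 and 8.82 in F3 samples. Its LFC of 0.71 in F1 (0.28, 0.174) and 0.74 in F3 rats (0.28, 0.115) did not pass the threshold in edgeR. It passed without F2 sample j (adjusted p = 0.0163 and 0.00742) and with the 6 samples compared (0.0371 and 0.0153). Without F2 sample j the margins of Cbl (-0.18), Birc6 (-0.16) and Amer1 (-0.061) turned negative, and 100 trough genes were found, of which 56 were among the 148. The 92 genes lost without F2 sample j included 12 of the 20 named ones, Slc36a1, Cbx2, Casp2, Aptx and Amotl1 with them. Without F2 sample i or k, in contrast, 307 and 398 genes met the rule, and without AL sample k 87 did, of which 82 were among the 148. Of the 148, 21 met the rule without any 1 of the 12 samples, Slc25a24, Ankrd49, Arid3a and Amotl2 among the named ones.

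**Figure D5:**
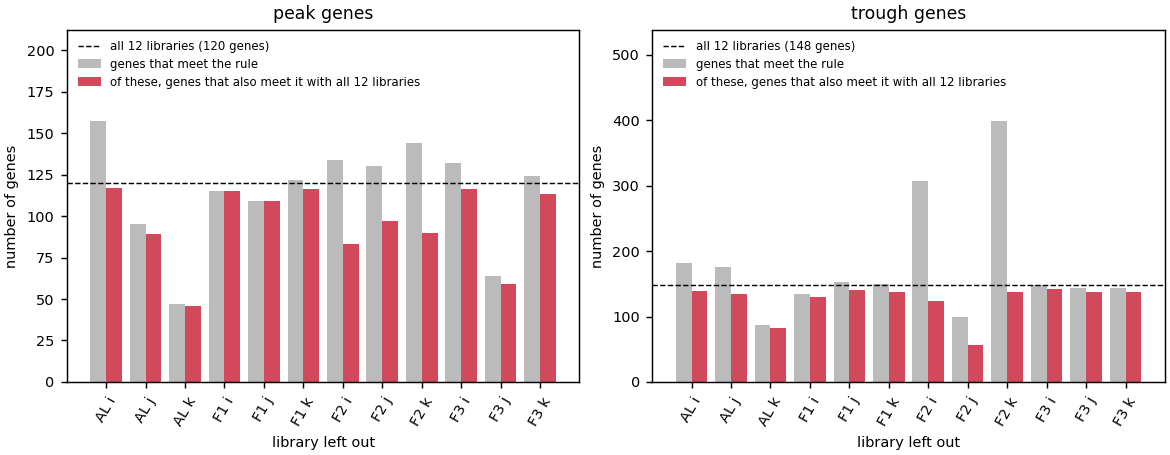
Number of genes that meet the rule for a peak (left) or a trough (right) when each of the 12 samples is left out (grey bars) and how many of them also meet it with all samples (red bars), beside the number with all samples (dashed line, 120 and 148). The peak genes number 47 without AL sample k and 64 without F3 sample j, and the trough genes rise to 398 without F2 sample k while 56 of the 148 remain without F2 sample j.

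Arid3a, a DNA-binding protein, had the widest trough of the 20 named genes, with a margin of 0.49, and 21.1, 30.7 and 34.99 CPM in AL, 32.7, 32.1 and 26.9 in F1, 20.6, 16.4 and 24.2 in F2 and 37.7, 29.9 and 35.2 in F3 samples. AL sample i (21.1 CPM) lay among the F2 samples. Amotl2, an angiomotin-like protein of cell junctions, had 42.5, 32.7 and 69.02 CPM in AL, 25.2, 37.2 and 34.7 in F1, 19.98, 23.2 and 25.8 in F2 and 34.2, 33.3 and 24.3 in F3 samples. AL sample k was the highest, and F1 sample i and F3 sample k lay among the F2 samples. The LFC of -0.60 in F3 against AL rats did not pass the threshold (standard error 0.24, adjusted p = 0.140 from edgeR with Benjamini-Hochberg adjustment), although it did without AL sample j (0.0386). Both Amotl1 and Amotl2 were trough genes, whereas Axl and Ajuba, from the same list of targets of YAP and TEAD factors, were peak genes, and these 4 were all the genes of that list of 15 with a symbol and enough reads. Card6, a caspase recruitment domain protein whose gene neighbours that of the peak gene C7 in the RefSeq order, had 34.4, 26.98 and 40.7 CPM in F2 samples and 37.2 to 56.4 CPM in the other 9. Ano2 (a chloride channel), Bloc1s6 (a subunit of the BLOC-1 complex), Asb7 (a substrate receptor like Asb8) and Apol11a had margins of 0.35, 0.32, 0.32 and 0.31. Of the 148, ENSRNOG00000003620 had the widest margin, 0.86, with 1.73, 6.29 and 4.79 CPM in F2 samples, but F1 sample k (1.90 CPM) lay within them.

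The margins near the threshold show how the lists end. The peak genes just inside with a symbol were Abcc9 (0.309) and Arhgef17 (0.316), and just outside were Abhd17a (0.282) and Adap2 (0.271). Of the trough genes, Asb8 (0.302) and Aptx (0.305) were just inside, and Bmf (0.296) and Bcl3 (0.289) just outside. The median margin was 0.39 for peak and 0.36 for trough genes, and 19 and 11 genes had a margin of at least 0.5. The nearest group was AL for 72 peak and 95 trough genes, F1 for 20 and 38, and F3 for 28 and 15.

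Whether the genes differed between AL, F1 and F3 rats, groups that the rule did not compare with each other, was tested over all 13050 genes with at least 1 read in each sample by edgeR's quasi-likelihood test, with a Benjamini-Hochberg adjusted p of at most 0.05. In F1 against AL rats, 6.56% of the 13050 genes were called, and 2 of the 120 peak genes (both higher in F1 rats) and 1 of the 148 trough genes (Cbx2, higher). In F3 against AL rats, 12% of all genes were called, and 5 peak genes (2 higher, 3 lower) and 7 trough genes (all higher, against 6.28% of all genes). Shares of 1.67% and 0.676% at day 1 and of 4.17% and 4.73% at day 3 thus lie below those of all genes. No conclusion is drawn from this, since the AL, F1 and F3 means also entered the rule. Members also varied more inside groups than genes at large. In AL rats the median SD on the log2 scale was 0.49 for peak and 0.20 for trough genes, against 0.10 over the 9461 genes. Members also had fewer reads: the median of their mean reads was 389 for peak and 294 for trough genes, against 866 over the 9461 genes. The part of depth in this spread, and of this spread in the low shares, was not tested. The counts of calls rested on few samples. Peak genes called at day 1 were 0 without F1 sample i or k (7 at an unadjusted p under 0.05 each time) and 1 without AL sample i, F2 sample i or F2 sample j, and at day 3 they were 3 without sample i of AL, F2 or F3 rats and without F3 sample j. Trough genes called at day 1 were 8 without F2 sample j (5.41%, against 11.1% of all genes in that fit) and 0 without AL samples i, j or k, F1 samples i or j, F2 sample i, or F3 samples i or j (9 to 28 at an unadjusted p under 0.05). At day 3 they were 25 without F2 sample j (16.9%, against 18.1% of all genes), 11 without AL sample k (7.43%, against 8.1%), 4 without F3 sample k, 3 without AL sample i or j, 2 without F3 sample j and 0 without F3 sample i (17 at an unadjusted p under 0.05). Of all genes, 2.33% to 11.1% were called at day 1 and 6.04% to 18.1% at day 3 with 1 of the 12 samples left out, and in each of these fits the shares of peak and of trough genes called were below that of all genes.

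In F3 against F1 rats, 0% of the 13050 genes were called by edgeR (579 or 4.44% at an unadjusted p under 0.05, and 24 of 11785 or 0.204% by DESeq2's Wald test), and 0 of the peak or trough genes were called by either tool, with 1 peak and 1 trough gene at an unadjusted p under 0.05 in edgeR. The median LFC of the peak genes was -0.25 in F1 and -0.003 in F3 against AL rats, and that of the trough genes was 0.12 and 0.17, against -0.004 and -0.005 over all genes. Of the 148 trough genes, 120 had an LFC above 0 in F3 against AL rats, and 114 when reads were scaled by their total alone. Of the 120 peak genes, 84 had an LFC below 0 in F1 against AL rats, and 93 when scaled by the total. With the total as the scale, the median LFC over all genes was itself -0.065 in F1 and -0.0515 in F3 against AL rats. The AL, F1 and F3 means entered the rule, and the share of all genes on each side of 0 is not given here. These counts are thus a description.

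Of 43 lists of pathway and cell type genes, 7 held a peak or trough gene and 36 held none. The 7 are those of pericytes, smooth muscle, PPAR targets, monocarboxylate and ketone use, BMP and TGF-beta (Bambi, 1 of 3 genes with enough reads), YAP and TEAD targets, and actin genes of the serum response factor (Acta2, 1 of 2). Few genes of each list could be named, so a list without a member says little: of 20 markers of brain endothelium 6 had a symbol, and these had 0 members. Of 18 genes of microglia and macrophages, 6 had a symbol and none had enough reads, with a summed level of 2.69 to 4.20 CPM in AL, 2.32 to 3.40 in F1, 2.82 to 4.94 in F2 and 2.41 to 5.55 in F3 samples. Aldoc of the astrocyte list had 62.9 to 96.0 CPM in F2 samples against 64.5 to 94.6 CPM in the other 9, and Alas2 of red blood cells had 1.48 to 2.08 against 1.54 to 4.62 CPM. Markers of fibroblasts, oligodendrocytes, neurons and white blood cells were not analysed here.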

How the data were processed

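RNA of cerebral endothelial cells from 12 rat samples was measured by polyadenylated RNA-Seq. The deposited counts, 48 files with 1 technical replicate each, are whole numbers of reads per gene that the authors made without normalization: reads were demultiplexed with bcl2fastq 2.18.0.12, aligned with STAR to Rnor_6.0 (Ensembl annotation), reads with several matches were removed, and exon reads were counted with HTSeq 0.5.3. The strand setting of the counting is not given in the sources used here, so overlapping genes on opposite strands may share reads. Samples were grouped by their labels. For 1 file of F1 sample k, technical replicate d, the title gives F1 and another field a fast of 2 days, and it was kept in F1. The 3 samples of a group came from separate experiments by the study's methods, each of pooled animals.

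Technical replicates were summed (20718644 to 25960874 reads per sample) and the rule was applied to log2(CPM + 0.1). Genes with at least 1 read in each sample were tested with edgeR 4.0.16 in R 4.3.3 (TMM, quasi-likelihood, robust, 4 group means), for F1 and F3 against AL and F3 against F1, with Benjamini-Hochberg adjustment. Standard errors are the LFC divided by the root of F. The genes, lists and alternatives were chosen with earlier results of these data known. Named genes are those with a symbol and one of the following: the 12 widest margins of each class, a place on a list, a call, or a margin next to the threshold; the remaining members with a symbol were added after their values were seen, and some of them are not reported here. Symbols came from supplementary tables of the study (names alone) and promoters from RefSeq (GRCr8). The authors' own comparisons were not used. Test and rule were tested on simulated data. Alternatives were other scalings, filters, pseudocounts and thresholds, DESeq2 1.42.0, a fit of the 6 samples compared, sample letters as blocks, technical replicate d left out, and each sample left out.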

Additional observations from a re-analysis of the deposited data

How the results depend on the processing

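Numbers of peak and trough genes stayed within 1.5 times the reported 120 and 148 under TMM or DESeq2 scaling (124 and 122 peak, 124 and 121 trough), a pseudocount of 1 CPM, a minimum of 50 reads and without technical replicate d. The genes themselves changed: TMM and DESeq2 scaling lost 33 and 35 of the 148 trough genes and 6 and 8 of the 120 peak genes. A pseudocount of 1 CPM lost 42 trough and 19 peak genes. The numbers were 375 and 334 with no read minimum beyond 1 read in each sample, and 19 and 11 with a margin of at least 0.5. Leaving out each sample in turn gave 47 to 157 peak and 87 to 398 trough genes. Margins then ranged from -0.0020 to 0.75 (C7), -0.041 to 0.57 (Atp13a5), -0.026 to 0.53 (Ano1), -0.022 to 0.63 (Abcc9), -0.061 to 0.68 (Amer1), -0.18 to 0.65 (Cbl) and -0.16 to 0.60 (Birc6). The cause was not tested.

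Members called in F1 against AL rats were 5 peak and 3 trough genes with DESeq2's Wald test (4.17% and 2.03%, against 10.8% of all genes tested there), 1 peak gene with no filter (0.833%, against 3.94%), 4 trough genes with the 6 samples compared (2.7%, against 7.83%), and 0 trough genes with total reads (7.42% of all genes; 17 at an unadjusted p under 0.05). In F3 against AL rats they were 15 trough genes with DESeq2 (10.1%, against 15.6%), 16 with the 6 samples compared (10.8%, against 15% of all genes), and 3 peak genes with no filter (2.5%, against 7.24%). At an adjusted p of at most 0.01 they were 0 peak and 0 trough genes at day 1 and 3 peak and 0 trough genes at day 3. The share of all genes called at that threshold is not given here, so no conclusion is drawn from these counts. Leaving out each sample gave 0 to 3 peak and 0 to 8 trough genes at day 1, and 3 to 6 peak and 0 to 25 trough genes at day 3. Over all genes tested, the sample letters did not show a pairing among AL, F1 and F3 samples. Correlations of same-letter deviations were 0.0273, -0.0128 and 0.0259 for F1 with AL and 0.139, -0.00353 and -0.0172 for F3 with AL. For F3 with F1 they were 0.0694, 0.0252 and 0.0302. For F3 with AL, samples of different letters had correlations from -0.193 to 0.204. F2 samples were not included, and a shared effect on a smaller set of genes was not tested. The 51 peak genes that were high in sample i of AL, F2 and F3 rats, but not of F1 rats, and in F2 sample k are such a set. With the letter as a replicate block, 2 peak and 1 trough genes were called at day 1 (5.73% of all genes), 5 and 5 at day 3 (11.6%), and 0 and 0 in F3 against F1 rats. Of these, 2 and 0 at day 1 and 4 and 4 at day 3 were among the calls reported without the block, and the calls of Cbx2 at day 1 (edgeR adjusted p = 0.0556) and Asb8 at day 3 (0.0649) were not made with it. In F3 against F1 rats 0 members were called under each alternative. Depth allowed 9461 genes to be judged, and genes below the read minimum were left out.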
